A study of Arabidopsis thaliana with 116 samples.

Results

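The core cell cycle genes of Arabidopsis thaliana described here are 40 of the 27655 genes in the count table: 9 B-type cyclins, 7 A-type cyclins, 10 D-type cyclins, the kinase CDKA;1 with 4 B-type kinases, the inhibitors KRP1 to KRP7, and the inhibitors SIM and SMR1. The list holds loci of the known families and its rule uses no measured value, and the question put to them was how the mitotic cyclins and the inhibitors compared across tissue, hormone and time. Col-0 seedlings were raised on mesh for 5 days and moved to new agar with 2 µM abscisic acid (ABA), with 150 µM salicylic acid (SA), or with no added hormone (control). ABA is the hormone of drought and salt responses, and SA that of responses to pathogens. Root and shoot were separated by a razor cut and made into separate poly(A) RNA libraries after 1, 2, 4, 7, 24 and 48 h of ABA, SA or control, and after 0 h of control only. Each group had 3 libraries, and the control at 0 h had 4 in each tissue, which gave 58 libraries in each tissue and 38 groups. The design text calls the replicates biological without saying how many seedlings each held, and every sample is a whole organ of wild-type plants, in which dividing cells are a minority.

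Progress through the plant cell cycle depends on cyclin-dependent kinases, which act only when bound to a cyclin. D-type cyclins respond to hormones and nutrients and with CDKA;1 release the E2F factors from RBR1 so that DNA replication can start, A-type cyclins act in S phase and at the entry into mitosis, and B-type cyclins with the same kinase and the plant-specific CDKB kinases drive mitosis. The KRP and SIM/SMR proteins bind cyclin-kinase complexes and block them, and several of them are known for switching cells from division to endoreduplication, in which DNA is copied without mitosis. In a seedling the B-type cyclins and CDKB kinases mark the root meristem, the shoot apex and young leaves.

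Library totals ran between 46189 and 221250466 counts, with a median of 30483900 in the whole series. By far the shallowest library was a shoot control of 7 h, replicate 1, where a single read is worth more than the level of most members. The next lowest was 5031509 counts. Levels are given as CPM, the counts of a gene per 1000000 counts of its library after scaling by edgeR's TMM factors, and tests are edgeR's quasi-likelihood tests fitted to every gene of a tissue, with Benjamini-Hochberg adjusted p-values over all genes and a threshold of 0.05. "Higher", "lower", "rose" and "fell" below are used of members that passed this threshold against the control of the same time, unless a value is given instead. Values in brackets or after a gene's name with no unit are log2 fold changes, positive where the hormone-treated samples were higher. In each tissue 39 of the 40 members passed the filter on low counts, and CYCD7;1, a cyclin of guard mother cells, did not. The median log2 fold change of all genes tested lay between -0.04 and 0.02 in the 24 comparisons of a hormone with its control. Tissue labels matched their markers: on a scale common to both tissues, 6 root genes (PIN2, WER, COBL9, EXPA7, IRT1, NRT2.1) summed to 185 to 737 CPM in root libraries and 2.30 to 47.4 CPM in shoot libraries, while 5 photosynthesis genes (RBCS1A, CAB1, CA1, CAB3, RCA) summed to 9.41 to 136 CPM in root and 21339 to 87417 CPM in shoot. Counts of 3 pairs of genes are uncertain because they share sequence: CYCB1;2 with CYCB1;5, CYCB2;3 with AT1G20590, and CDKB2;1 with CDKB2;2. Another annotated gene overlaps 12 members, CYCA2;3, CYCD1;1, CYCD3;1, CYCD3;2, CYCD6;1, the 4 CDKB genes, KRP4, SIM and SMR1, and whether strand was used in counting is not given in the sources used here, so reads of such neighbours and of the members cannot be told apart.

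The promoters of the mitotic cyclins are shown because the short element AACGG on either strand, the core of the mitosis-specific activator (MSA) element that MYB3R factors bind, recurs in them. In a window of 250 bases before to 50 bases after the annotated gene start, 8 of 9 B-type cyclin promoters held it, against 24.7% of 27443 promoters of protein-coding genes. It was present in 5 of 7 KRP promoters, 3 of 7 A-type and 1 of 10 D-type cyclin promoters, and in 1 of 5 CDK promoters. CYCB2;4 (AT1G76310) was the B-type cyclin without it. The 250 bases before the start of 3 B-type cyclins are given with KRP1 (AT2G23430), which held the most matches of any member, and with CYCA2;4 (AT1G80370), which held none. Letters are 5′ to 3′ on the strand of the gene, read from RefSeq's TAIR10.1 assembly, with the MSA core in capitals on either strand. CYCB1;1 (AT4G37490) lies on the minus strand (chr4:17624309-17624558) with matches 168, 61 and 13 bases before the start. CYCB1;3 (AT3G11520) also lies on the minus strand (chr3:3627274-3627523), with matches at 64, 39 and 5 bases. CYCB2;2 (AT4G35620) lies on the plus strand (chr4:16901346-16901595), with matches at 172, 124 and 102 bases. KRP1 is on the minus strand (chr2:9978091-9978340), with matches at 215, 127, 122, 111, 45 and 26 bases, and CYCA2;4 on the plus strand (chr1:30213455-30213704). A match is a run of letters and does not show that a factor binds there.
CYCB1;1: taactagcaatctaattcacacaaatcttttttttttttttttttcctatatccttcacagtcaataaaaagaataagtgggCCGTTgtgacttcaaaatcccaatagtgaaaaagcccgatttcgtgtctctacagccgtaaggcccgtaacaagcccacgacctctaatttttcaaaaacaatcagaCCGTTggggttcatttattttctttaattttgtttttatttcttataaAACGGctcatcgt
CYCB1;3: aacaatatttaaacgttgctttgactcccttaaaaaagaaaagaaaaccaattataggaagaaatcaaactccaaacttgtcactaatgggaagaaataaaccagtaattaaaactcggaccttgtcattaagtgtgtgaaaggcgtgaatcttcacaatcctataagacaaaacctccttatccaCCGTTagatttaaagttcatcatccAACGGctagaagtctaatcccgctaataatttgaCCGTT
CYCB2;2: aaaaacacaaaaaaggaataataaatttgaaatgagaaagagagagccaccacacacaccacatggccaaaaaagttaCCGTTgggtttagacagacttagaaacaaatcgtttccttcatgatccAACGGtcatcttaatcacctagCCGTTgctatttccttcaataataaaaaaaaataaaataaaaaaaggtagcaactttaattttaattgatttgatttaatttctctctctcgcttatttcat
KRP1: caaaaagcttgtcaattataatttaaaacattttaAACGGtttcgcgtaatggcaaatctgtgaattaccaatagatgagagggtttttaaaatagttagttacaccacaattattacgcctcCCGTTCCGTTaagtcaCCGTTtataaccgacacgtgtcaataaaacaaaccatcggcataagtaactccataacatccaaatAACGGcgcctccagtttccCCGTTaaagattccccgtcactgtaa
CYCA2;4: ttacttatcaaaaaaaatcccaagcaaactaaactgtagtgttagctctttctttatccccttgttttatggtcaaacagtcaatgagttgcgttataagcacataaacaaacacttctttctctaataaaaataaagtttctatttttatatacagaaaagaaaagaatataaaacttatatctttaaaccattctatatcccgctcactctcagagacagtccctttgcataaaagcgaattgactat

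Of the other genes with known roles in the cycle, 8 of 10 mitosis and cytokinesis genes held the MSA core. The E2F sites TTTCCCGC and TTTGGCGC stood in 6 of 15 DNA replication promoters, against 1.21% of all promoters, and among the 40 members only in that of CYCD3;3 (AT3G50070). The ABA-responsive core ACGTG was found in 1 of 9 B-type cyclin promoters, 2 of 7 KRP promoters and 3 of 5 CDK promoters, against 26.7% of all. For the cores of elements tied to SA, TTGAC (W box) stood in 3 of 9 B-type, 6 of 7 A-type and 5 of 10 D-type cyclin promoters, 4 of 5 CDK and 4 of 7 KRP promoters, against 50.5% of all. TGACG (TGA) stood in 0 of 9 B-type, 1 of 7 A-type and 1 of 10 D-type cyclin promoters, 2 of 5 CDK and 4 of 7 KRP promoters, against 23.1%. Both strands were searched, and TTGAC and TGACG can share 4 letters where they overlap.

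Before any treatment the B-type cyclins and the CDKB kinases were more abundant in root RNA than in shoot RNA. All 9 B-type cyclins were higher in root, with a median log2 difference of 1.19, and so were the 4 CDKB kinases, while CDKA;1 (AT3G48750) did not pass the threshold. Levels here are on the scale common to both tissues. Of 39 members tested, 23 were higher and 8 lower in root, where 38.1% and 42.2% of all genes tested were. CYCB1;1, the mitotic cyclin used as a marker of cells at G2 and mitosis, averaged 13.2 ± 0.902 CPM in root and 5.90 ± 1.33 CPM in shoot (SD, n = 4 each, log2 difference 1.14 ± 0.14 SE, adjusted p = 8.29e-12). CDKB1;1 (AT3G54180) averaged 20.8 ± 0.871 CPM in root and 5.74 ± 0.416 CPM in shoot (log2 difference 1.85 ± 0.09 SE, adjusted p = 3.66e-32), and CDKA;1 41.9 ± 0.601 CPM in root and 41.2 ± 1.61 CPM in shoot (log2 difference 0.02 ± 0.08 SE, adjusted p = 0.795). The root and shoot libraries did not overlap for any B-type cyclin or CDKB gene, and they did for the A-type kinase. A difference between the organs was common, as 80.2% of all genes tested passed the threshold in either direction. The share of all genes without overlap was not computed. In whole organs, fewer cells of a type and less RNA per cell cannot be told apart, here and in every comparison below.

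The inhibitors had no common direction. KRP1 was the most shoot-biased member tested, at 3.43 ± 0.468 CPM in root and 18.1 ± 0.967 CPM in shoot (log2 difference -2.39 ± 0.17 SE, adjusted p = 1.02e-23), and KRP4 (AT2G32710), KRP6 (AT3G19150) and KRP7 (AT1G49620) were also lower in root, with log2 differences of -0.85, -0.37 and -0.86. SIM (AT5G04470), the inhibitor that keeps trichomes from dividing, was higher in root at 42.6 ± 4.42 CPM in root and 11.3 ± 3.58 CPM in shoot (log2 difference 1.94 ± 0.13 SE, adjusted p = 1.03e-23), and KRP5 (AT3G24810) was higher by 0.97. KRP2 (AT3G50630), KRP3 (AT5G48820) and SMR1 (AT3G10525) did not pass the threshold (-0.15, -0.06 and 0.09). Among the G1 cyclins the CYCD3 genes stood apart, with CYCD3;1 (AT4G34160) at -1.15, CYCD3;2 (AT5G67260) at -1.51 and CYCD3;3 at -0.46, all lower in root. CYCD6;1 (AT4G03270), a cyclin of formative divisions in the root ground tissue, was also lower in root, at 1.19 ± 0.139 CPM in root and 3.63 ± 0.503 CPM in shoot (log2 difference -1.63 ± 0.15 SE, adjusted p = 1.14e-17). CYCA2;1 (AT5G25380) was the most root-biased member, at 1.85 ± 0.162 CPM in root and 0.454 ± 0.189 CPM in shoot (log2 difference 1.98 ± 0.25 SE, adjusted p = 1.29e-11). Other A-type cyclins, CYCA1;1, CYCA2;3 and CYCA3;1, did not pass the threshold (0.16, 0.22 and -0.17). Per kb of exon, which allows genes to be set side by side, SIM was the highest member in root (53.8 CPM per kb in root and 14.2 CPM per kb in shoot) and CYCD3;2 the highest in shoot (14.9 CPM per kb in root and 42.5 CPM per kb in shoot), with CDKA;1 at 27.9 CPM per kb in root and 27.5 CPM per kb in shoot. CYCB1;2 (AT5G06150), the highest B-type cyclin in both tissues, had 15.8 CPM per kb in root and 9.13 CPM per kb in shoot. CYCD7;1 (AT5G02110) had no count in the 4 root libraries, and at most 17 counts in a shoot library.

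**Figure D1:**
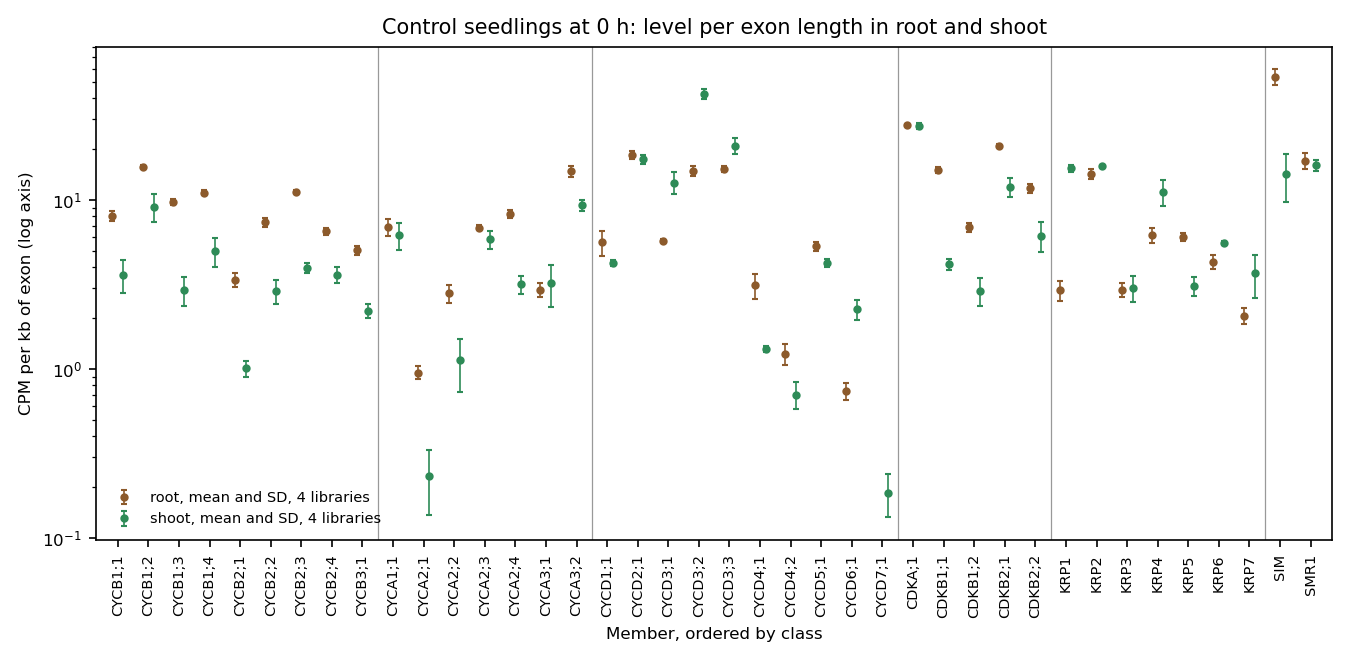
Level of each member in control seedlings at 0 h, as CPM per kb of exon on a log axis, with root left of shoot for each gene. Points are means of 4 libraries and bars the SD, and vertical lines divide B-type cyclins, A-type cyclins, D-type cyclins, CDKs, KRP inhibitors and the pair SIM and SMR1. The root points of all 9 B-type cyclins lie above the shoot points, KRP1 lies the other way, and a root value of 0 is not drawn.

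Transfer to hormone-free plates was itself followed by changes with time. In control roots 7 of 9 B-type cyclins were lower at 7 h than at 0 h (median log2 difference -0.56, with 31.4% of all genes tested lower) and 5 of 9 were higher at 24 h (median 0.26, 17.5% of all genes higher). CYCB1;3 averaged 10.8 ± 1.32 CPM at 7 h (SD, n = 3), against 19.7 ± 0.798 CPM at 0 h (SD, n = 4) (log2 difference -0.86 ± 0.11 SE, adjusted p = 2.92e-09). At the same 7 h the inhibitors KRP3, KRP6 and KRP7 were higher, by 0.97, 1.05 and 1.09, and KRP4 was lower (-0.70). SIM was lower at all 6 times after transfer, with log2 differences of -0.56, -0.83, -0.74, -0.31, -1.04 and -0.77 at 1, 2, 4, 7, 24 and 48 h, where 33.2%, 49%, 28%, 62.7%, 34% and 35.1% of all genes tested changed in either direction. In control shoots no B-type cyclin passed the threshold at 1, 2 or 4 h, where 5.31%, 10.3% and 7.45% of all genes tested were lower and 8.71%, 12.2% and 10.5% higher. All 9 were higher at 24 h (median 0.83, 17.9% of all genes higher) and all 9 at 48 h (median 0.67, 21.7%). CYCD4;1 (AT5G65420) was higher by 1.29 at 24 h, SMR1 by 1.43 at 48 h, and SIM was lower (-0.91) at 48 h. A test over the 6 times called 36 members in root and 31 in shoot, against 87% and 63.6% of all genes tested, so the root share was close to that of all genes. Without replicate 2 the shoot count was 20. Control libraries carry another name prefix than those of 0 h at all times from 2 h on in root and from 4 h on in shoot, so time and prefix cannot be told apart there. The comparisons with a hormone below are with the control of the same time.

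The B-type cyclins and the inhibitors were also set side by side as classes, with no test between the classes. To show each class per library, the geometric mean of CPM + 0.5 was taken over its 9 genes. In SA roots at 4 h the B-type mean was 5.81, 5.29 and 5.25, in ABA roots 11.1, 10.5 and 10.9, and in control roots 16.6, 15.6 and 17.2. The inhibitors at the same time were at 9.02, 9.27 and 9.48 in SA roots, 9.85, 9.40 and 10.2 in ABA roots and 9.96, 9.68 and 10.1 in control roots. The 3 treatments did not overlap for the B-type cyclins, and SA and ABA roots each lay below the control, whereas for the inhibitors the ABA and control roots overlapped and the SA roots lay below the control without overlap. Earlier, at 1 h, the inhibitor mean was 6.84, 6.97 and 7.29 in SA roots, against 9.76, 9.59 and 10.6 in control roots. The B-type mean at 1 h was 15.9, 15.3 and 14.4, against 18.2, 16.0 and 16.7. At 2 h the inhibitor mean was 7.49, 7.51 and 9.11, against 11.0, 10.5 and 11.5. The B-type mean at 2 h was 10.2, 8.45 and 7.36, against 14.8, 15.6 and 15.9. Both classes lay below the control without overlap at both times. At 48 h the B-type mean in SA roots was 6.09, 5.53 and 6.78, against 19.2, 19.2 and 19.6 in control roots, and in SA shoots 4.83, 4.71 and 4.59, against 9.11, 7.93 and 8.62 in control shoots. The inhibitor mean at 48 h was 8.01, 7.86 and 8.90 in SA roots, against 11.1, 10.4 and 10.6 in control roots, and 8.91, 9.43 and 8.22 in SA shoots, against 8.94, 8.92 and 8.83 in control shoots. At 48 h the inhibitor mean in SA roots was thus also below the control, in SA shoots it overlapped the control, and single inhibitors moved in both directions within the class.

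**Figure D2:**
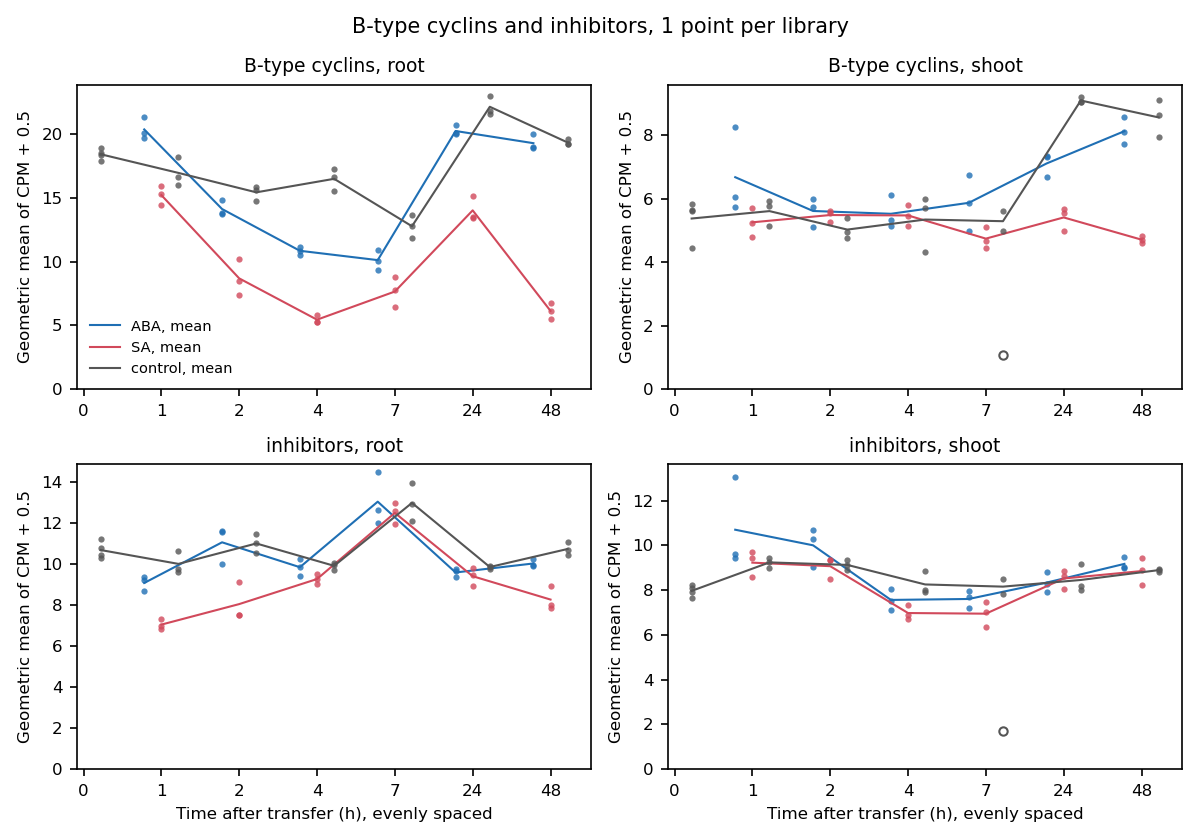
Geometric mean of CPM + 0.5 over the 9 B-type cyclins (top) and the 9 inhibitors KRP1 to KRP7, SIM and SMR1 (bottom) in root (left) and shoot (right), by time after transfer in h, evenly spaced. Each point is 1 library and lines join means, with ABA in blue, SA in red and control in grey. The open point is the shallow shoot control library at 7 h, left out of the line. SA roots dip at 4 h and at 48 h in the top left panel, and SA shoots lie under the control at 24 and 48 h in the top right panel.

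**Figure D3:**
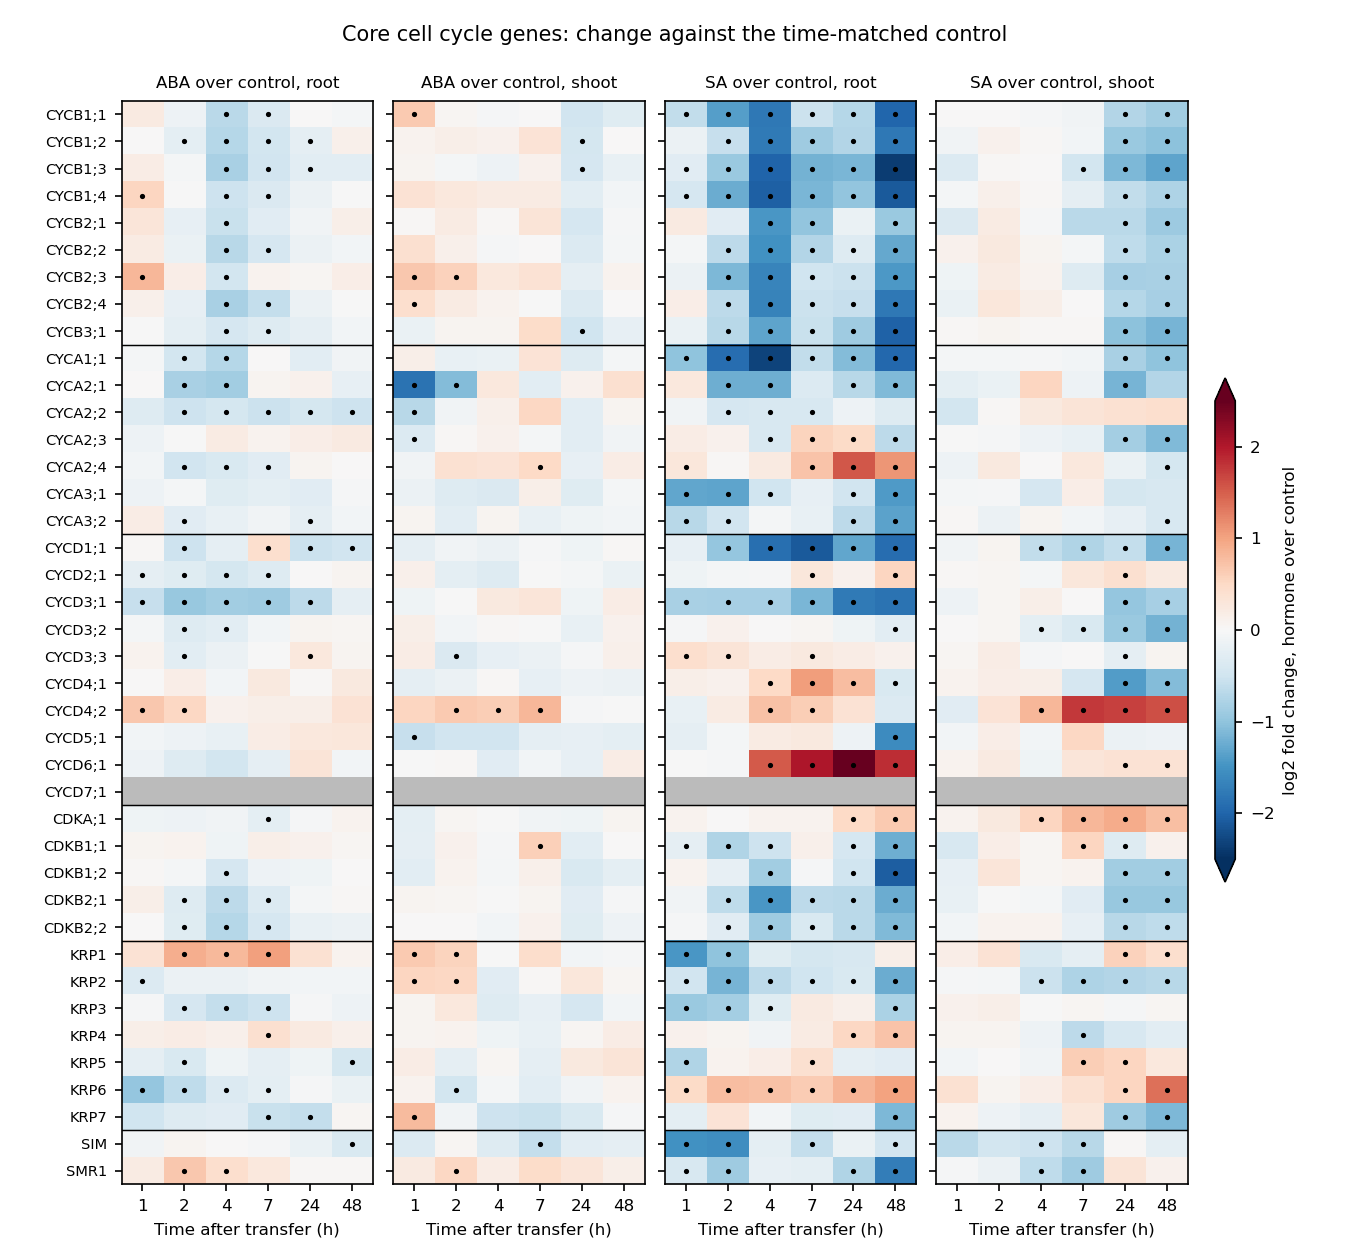
Log2 fold change of hormone over control for all 40 members (rows) at 6 times after transfer in h (columns), for ABA and SA in root and shoot. Red is higher and blue lower in hormone-treated seedlings, dots mark an adjusted p under 0.05, grey marks the member that was not tested, and lines divide the classes. The blue block of B-type cyclins spans 2 to 48 h in SA roots and begins at 24 h in SA shoots.

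The mitotic cyclins were lower in SA roots. Their fold changes had a low point at 4 h, a partial return at 7 and 24 h, and another low point at 48 h. The return at 7 h held a decrease in the controls as well as an increase in SA roots. The B-type mean per library went from 16.6, 15.6 and 17.2 at 4 h to 13.6, 11.9 and 12.8 at 7 h in control roots. In SA roots it went from 5.81, 5.29 and 5.25 to 6.41, 7.77 and 8.77. At 1 h 3 members were higher and 14 lower, where 22.7% and 22.5% of all genes tested were, 45.2% in all, and at 2 h 2 members were higher and 23 lower, where 29.4% and 32.1% of all genes tested were, 61.5% in all. At 4 h 4 members were higher and 22 lower, where 30.8% and 30.8% of all genes tested were, 61.6% in all, and at 7 h 9 members were higher and 17 lower, where 27.9% and 30.4% of all genes tested were, 58.3% in all. At 24 h 7 members were higher and 20 lower, where 32.1% and 32.9% of all genes tested were, 65% in all, and at 48 h 6 members were higher and 28 lower, where 36.1% and 38.7% of all genes tested were, 74.9% in all. The B-type cyclins called lower numbered 3, 8, 9, 9, 8 and 9 of 9 at 1, 2, 4, 7, 24 and 48 h, with none higher, and their median log2 fold changes were -0.15, -0.68, -1.67, -0.74, -0.70 and -1.79. The shares of all genes that changed were large, so the member counts stand against a high background, and the higher counts stayed under it at every time. The test over all 6 times called 38 members, against 92.6% of all genes tested, a share near that of the members, and the test of whether the effect differed between times called 36, against 81%.

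CYCB1;3, a mitotic cyclin, had 4.18, 3.57 and 4.73 CPM in SA roots at 48 h, against 22.3, 21.5 and 20.8 CPM in control roots (log2 fold change -2.36 ± 0.13 SE, adjusted p = 2.29e-21). CYCB1;4 (AT2G26760) had 5.56, 5.41 and 6.08 CPM in SA roots at 48 h, against 25.4, 22.9 and 24.6 CPM in control roots (log2 fold change -2.10 ± 0.13 SE, adjusted p = 2.70e-19). All 3 SA roots lay far below all 3 control roots for both genes, the B-type cyclins with the lowest fold changes at that time. CYCB1;1 had 4.28, 5.19 and 3.46 CPM in SA roots at 4 h, against 14.7, 14.2 and 15.5 CPM in control roots (log2 fold change -1.79 ± 0.12 SE, adjusted p = 2.27e-17), and its log2 fold changes over the 6 times were -0.61, -1.38, -1.79, -0.53, -0.70 and -1.99. It was the B-type cyclin with the largest decrease at 1 h and 2 h, and it was lower at all 6 times. The fold change nearest to 0 among the 9 at 48 h was that of CYCB2;1 (AT2G17620) (-0.93), which did not pass the threshold at 1, 2 or 24 h, and the median member, CYCB1;2, stood at -1.79. The plant-specific mitotic kinases were lower as well. CDKB1;2 (AT2G38620) had 3.06, 2.65 and 3.60 CPM in SA roots at 48 h, against 13.5, 11.3 and 13.6 CPM in control roots (log2 fold change -2.05 ± 0.14 SE, adjusted p = 4.11e-18). CDKB1;1, which restrains endoreduplication together with CYCA2;3 (AT1G15570), had 14.0, 13.6 and 15.0 CPM in SA roots at 48 h, against 34.1, 31.5 and 33.1 CPM in control roots (log2 fold change -1.21 ± 0.09 SE, adjusted p = 7.50e-16), with no call at 7 h (0.13) and with a call at 1 h that did not hold without any 1 of the 3 replicates or without the filter. CDKA;1 went the other way at the late times, at 0.50 at 24 h and 0.65 at 48 h, with 77.9, 76.2 and 79.0 CPM in SA roots at 48 h, against 46.9, 49.1 and 52.2 CPM in control roots (adjusted p = 1.11e-13). SA roots exceeded control roots in every library at 48 h.

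The A-type cyclins did not move as a unit. CYCA1;1 (AT1G44110), expressed around mitosis, showed the largest decrease of any member at 4 h, with 2.61, 2.73 and 2.49 CPM in SA roots at 4 h, against 12.3, 13.2 and 13.5 CPM in control roots (log2 fold change -2.32 ± 0.16 SE, adjusted p = 1.56e-17). CYCA3;1 (AT5G43080), of the subfamily linked to the start of S phase, was already lower at 1 h, with 2.59, 2.58 and 1.43 CPM in SA roots at 1 h, against 6.60, 4.72 and 4.89 CPM in control roots (log2 fold change -1.29 ± 0.18 SE, adjusted p = 5.84e-08). Its log2 fold change was -1.32 at 2 h, -0.50 at 4 h and -0.20 at 7 h, when it no longer passed the threshold, and -1.41 at 48 h. CYCA3;1 and CYCA3;2 (AT1G47210) thus reached their first low point by 2 h, before the B-type cyclins did at 4 h. CYCA2;4 was the exception among A-type cyclins. It had 28.3, 27.3 and 35.8 CPM in SA roots at 48 h, against 14.9, 12.7 and 14.6 CPM in control roots (log2 fold change 1.10 ± 0.11 SE, adjusted p = 9.30e-13), and it was higher by 1.56 at 24 h. CYCA2;3 was higher at 7 and 24 h (0.56 and 0.47) and lower at 48 h (-0.66), while CYCA2;1 was lower at 2, 4, 24 and 48 h, with -1.22 at 4 h.

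D-type cyclins moved in opposite directions in SA roots. CYCD6;1 had 10.9, 11.2 and 11.0 CPM in SA roots at 24 h, against 1.59, 1.62 and 2.05 CPM in control roots (log2 fold change 2.63 ± 0.16 SE, adjusted p = 8.66e-19), the largest increase of any member in any comparison. It had 7.61, 7.03 and 7.80 CPM in SA roots at 48 h, against 2.07, 2.03 and 2.11 CPM in control roots (log2 fold change 1.84 ± 0.17 SE, adjusted p = 4.00e-13). The SA and control roots did not overlap at either time. It did not pass the threshold at 1 and 2 h (-0.00198 and -0.03) and was higher from 4 h on. AT4G03260 overlaps it on the other strand. CYCD3;1, a cyclin induced by cytokinin and sugar, was lower at all 6 times (-0.82, -0.83, -0.82, -1.14, -1.77 and -1.84 at 1, 2, 4, 7, 24 and 48 h), with 5.25, 4.90 and 6.12 CPM in SA roots at 48 h, against 18.6, 18.1 and 21.1 CPM in control roots (adjusted p = 3.22e-15). CYCD1;1 (AT1G70210), known from the first divisions after germination, was lower from 2 h on, with -2.10 at 7 h. Neither gene overlapped the control at the times called. CYCD4;1 was higher at 4, 7 and 24 h (0.51, 1.05 and 0.77) and lower at 48 h (-0.38), and CYCD4;2 (AT5G10440) was higher at 4 and 7 h (0.74 and 0.61). CYCD5;1 (AT4G37630) was lower at 48 h alone (-1.57). CYCD3;2 was lower at 48 h only (-0.26) and CYCD3;3 was higher at 1, 2 and 7 h (0.41, 0.32 and 0.23), so the 3 CYCD3 genes did not move together. CYCD2;1 (AT2G22490) was higher at 7 and 48 h (0.28 and 0.53).

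Inhibitors moved in both directions in SA roots, more often down at 1, 2 and 48 h. Of the 9, those called lower numbered 6, 5, 2, 2, 2 and 5 and those called higher 1, 1, 1, 2, 2 and 2 at the 6 times, where 22.5%, 32.1%, 30.8%, 30.4%, 32.9% and 38.7% of all genes tested were lower and 22.7%, 29.4%, 30.8%, 27.9%, 32.1% and 36.1% higher. The 2 of 9 lower at 4, 7 and 24 h were near or under the share of all genes. SIM had 8.81, 12.1 and 10.1 CPM in SA roots at 2 h, against 27.1, 29.2 and 31.9 CPM in control roots (log2 fold change -1.55 ± 0.15 SE, adjusted p = 8.83e-13), and KRP1, described first as ICK1, had 0.817, 0.981 and 1.39 CPM in SA roots at 1 h, against 2.16, 2.86 and 3.65 CPM in control roots (log2 fold change -1.45 ± 0.25 SE, adjusted p = 4.72e-06). Both were below the control in every library at 1 h, and by 4 h their log2 fold changes were -0.24 and -0.31, neither past the threshold. KRP2, which limits lateral root initiation, was lower at all 6 times (-0.47, -1.15, -0.66, -0.50, -0.38 and -1.25), with 10.2, 8.28 and 9.26 CPM in SA roots at 48 h, against 23.1, 20.7 and 22.0 CPM in control roots (adjusted p = 4.75e-16). SMR1 had 4.01, 3.50 and 4.89 CPM in SA roots at 48 h, against 15.1, 11.8 and 14.1 CPM in control roots (log2 fold change -1.73 ± 0.15 SE, adjusted p = 1.50e-14). The SMR1 libraries did not overlap. SMR1 was also lower at 1, 2 and 24 h (-0.41, -0.88 and -0.75), but not at 1 h without replicate 2 or 3, and SIM was lower at 7 and 48 h (-0.60 and -0.47), but not at 48 h without replicate 2. KRP6 was higher at all 6 times (0.47, 0.78, 0.74, 0.64, 0.84 and 1.01), with 22.4, 22.9 and 24.1 CPM in SA roots at 48 h, against 12.2, 12.6 and 10.2 CPM in control roots (log2 fold change 1.01 ± 0.11 SE, adjusted p = 2.60e-11). KRP4 was higher at 24 and 48 h (0.52 and 0.72), and KRP3 was lower at 1, 2, 4 and 48 h (-0.93, -0.86, -0.30 and -0.80). KRP7 was lower at 48 h only (-1.12), and KRP5, known from root cells that endoreduplicate, was lower at 1 h (-0.76) and higher at 7 h (0.39). The 7 KRP genes thus held members that were lower, higher or both over the course. Among 7 other SMR inhibitors, 2 were higher and 2 lower at 48 h (median 0.10), and 4 lower and 0 higher at 1 h.

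**Figure D4:**
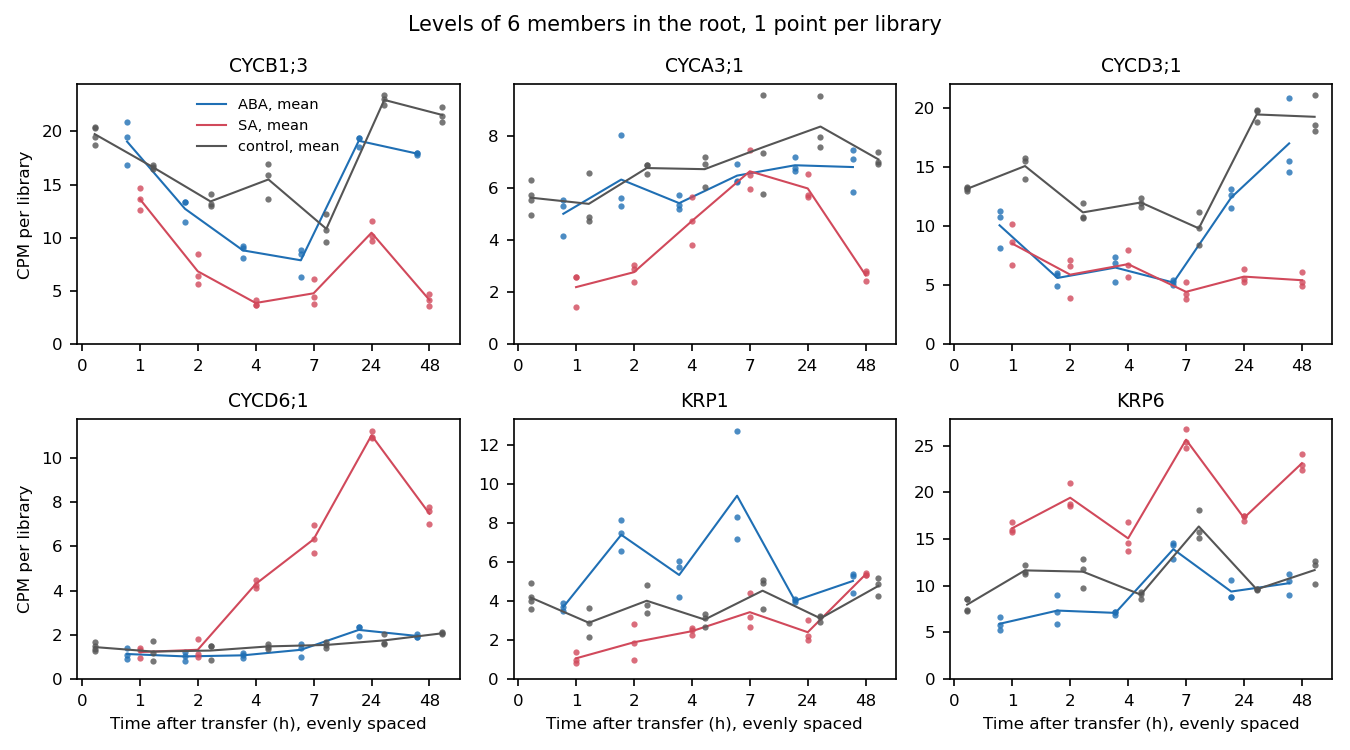
CPM per root library of CYCB1;3, CYCA3;1, CYCD3;1, CYCD6;1, KRP1 and KRP6 by time after transfer in h, evenly spaced, with ABA in blue, SA in red and control in grey. Points are libraries and lines join means of 3 libraries, 4 at 0 h. SA roots lie below control roots at 4 and 48 h in the first panel and above them from 4 h in the panel of CYCD6;1, and ABA roots lie above control roots for KRP1 between 2 and 7 h.

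Other genes of the cycle moved with the members in SA roots. Of 10 mitosis and cytokinesis genes, 9 were lower at 4 h (median -1.47) and 10 at 48 h (median -1.94), among them CDC20.1 and CDC20.2, activators of the anaphase-promoting complex, and the cytokinesis syntaxin KNOLLE (-2.04, -2.39 and -1.94 at 48 h). Of 15 DNA replication genes, 12, 15, 11, 6, 13 and 15 were lower at the 6 times, with medians of -0.74 at 2 h and -1.45 at 48 h, and the ribonucleotide reductase gene TSO2, the licensing gene CDT1A and the sliding clamp gene PCNA1 were at -1.19, -2.01 and -1.97 at 48 h. At 1 h 12 of 15 replication genes were lower, while 3 of 9 B-type cyclins were. The 13 E2F, RBR1 and MYB3R genes were mixed, with 6 higher and 4 lower at 4 h and 3 and 8 at 48 h, and at 48 h the S-phase activator E2FA stood at -1.53 and the MSA activator MYB3R4 at -1.38. Among all genes tested, 30.8% were higher and 30.8% lower at 4 h, and 36.1% and 38.7% at 48 h. Of 11 CDK partners and activators of the anaphase-promoting complex, 10 were lower at 48 h, among them CKS2 and the activators CCS52A1 and CCS52B (-1.12, -1.91 and -1.33), and of 3 other cyclins tested 2 were lower and 1 higher. Markers of the root meristem were lower at the late low point and not at the early one. PLT1, PLT2 and WOX5 summed to 26.0 to 26.2 CPM in SA roots at 4 h, against 24.9 to 27.7 CPM in control roots, with 0 of 3 lower, so the ranges overlapped. At 24 h they summed to 16.8 to 18.9 CPM, against 21.6 to 25.9 CPM in controls, and at 48 h to 9.28 to 10.9 CPM, against 20.7 to 22.3 CPM, with 3 of 3 lower and none at 0. The 6 root genes of the tissue check summed to 227 to 256 CPM in SA roots at 48 h, against 612 to 646 CPM, with 5 of 6 lower, and the stomatal lineage genes SPCH, MUTE, TMM, MYB88 and FLP to 20.4 to 23.6 CPM at 4 h, against 40.2 to 45.0 CPM. Of these 5 genes only 3 passed the filter on low counts in root, and 1 had no count in any root library. This sum therefore rests on part of the list. The part of all these marker genes in the result was not tested. Of the 3 SA root libraries at 24 h, replicates 2 and 3 bear a library name with a prefix that the controls lack, and with replicate 1 as the only SA library there, assumed to vary like the other groups, 26 members were called, against 27 with all 3.

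In ABA roots the mitotic cyclins were lower at 4 and 7 h. All 9 B-type cyclins were lower at 4 h with a median log2 fold change of -0.68, 7 at 7 h (-0.37), 2 at 24 h (-0.15), and at 48 h 0 were lower and 0 higher (-0.01). The smaller median at 7 h went with lower controls. The B-type mean per library at 7 h was 10.1, 9.33 and 10.9 in ABA roots, against 13.6, 11.9 and 12.8 in control roots. At 4 h it was 11.1, 10.5 and 10.9, against 16.6, 15.6 and 17.2. At 1 h CYCB1;4 and CYCB2;3 (AT1G20610) were higher (0.53 and 0.83), the opposite direction to 4 h. At 1 h 3 members were higher and 4 lower, where 20.9% and 19.6% of all genes tested were, 40.5% in all, and at 2 h 3 members were higher and 16 lower, where 26.4% and 26.2% of all genes tested were, 52.6% in all. At 4 h 2 members were higher and 21 lower, where 25.8% and 24.4% of all genes tested were, 50.3% in all, and at 7 h 3 members were higher and 17 lower, where 24.7% and 26.3% of all genes tested were, 51% in all. At 24 h 1 member was higher and 7 lower, where 21.1% and 18.3% of all genes tested were, 39.4% in all, and at 48 h 0 members were higher and 4 lower, where 17.4% and 14.7% of all genes tested were, 32.1% in all. The test over the 6 times called 32 members, against 76.8% of all genes tested, which is near the members' share, and the effect differed between times for 24, against 43.7%. Counts at 2, 7, 24 and 48 h depended on replicate 2. Without it the calls were 12, 11, 2 and 1 at 2, 7, 24 and 48 h, and 12 for the difference between times. Without replicate 1 at 24 h or replicate 3 at 48 h they were 4 and 1. The 23 calls at 4 h came to 20 with any replicate left out.

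CYCB1;3 had 8.15, 9.06 and 9.24 CPM in ABA roots at 4 h, against 16.9, 13.7 and 15.9 CPM in control roots (log2 fold change -0.81 ± 0.12 SE, adjusted p = 1.20e-07), and CYCB1;1 had 9.52, 9.33 and 8.93 CPM in ABA roots at 4 h, against 14.7, 14.2 and 15.5 CPM in control roots (log2 fold change -0.68 ± 0.11 SE, adjusted p = 2.15e-06). The ABA libraries lay below the control libraries without overlap for both. CYCB1;1 was also lower at 7 h (-0.36), a call that did not hold without replicate 2 (log2 fold change -0.39, adjusted p = 0.0548). CYCA2;1 had 1.37, 1.17 and 1.48 CPM in ABA roots at 4 h, against 2.29, 1.77 and 3.22 CPM in control roots (log2 fold change -0.87 ± 0.26 SE, adjusted p = 0.00519), a low level at which the call did not hold without replicate 3 (log2 fold change -0.68, adjusted p = 0.0996). CYCA2;2 (AT5G11300) was lower from 2 h to 48 h, with -0.53 at 7 h and -0.53 at 48 h. At 2 h 5 of 7 A-type cyclins were lower, when 1 of 9 B-type cyclins was. CYCD3;1 had the lowest fold change of the members at 4 h, with 5.24, 7.40 and 6.84 CPM in ABA roots at 4 h, against 12.0, 12.4 and 11.7 CPM in control roots (log2 fold change -0.88 ± 0.15 SE, adjusted p = 2.10e-06). It was lower at 1, 2, 4, 7 and 24 h (-0.58, -0.94, -0.88, -0.89 and -0.65) and stood at -0.22 at 48 h. CYCD2;1 was lower between 1 and 7 h, with -0.43 at 4 h, and CYCD4;2, a cyclin of stomatal divisions in the hypocotyl, was higher at 1 and 2 h (0.67 and 0.53). CDKB2;1 (AT1G76540) and CDKB2;2 (AT1G20930) were lower at 2, 4 and 7 h, with -0.66 and -0.71 at 4 h. CDKB1;1 passed the threshold at no time, with values of 0.06, 0.08, -0.11, 0.15, 0.11 and 0.04, and CDKA;1 was lower at 7 h only (-0.24), which did not hold without replicate 3 (log2 fold change -0.13, adjusted p = 0.0964).

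The inhibitors moved in both directions in ABA roots. KRP1, reported from earlier work as inducible by ABA, had 7.17, 12.7 and 8.31 CPM in ABA roots at 7 h, against 4.90, 3.62 and 5.08 CPM in control roots (log2 fold change 1.03 ± 0.19 SE, adjusted p = 9.61e-06), and it was higher by 0.90 at 2 h and 0.80 at 4 h. It had 5.77, 4.20 and 6.05 CPM in ABA roots at 4 h, against 3.35, 3.12 and 2.68 CPM in control roots (adjusted p = 0.00104), a call that did not hold without replicate 3 (log2 fold change 0.61, adjusted p = 0.0551). SMR1, known as LGO from its role in giant cells of the sepal, had 24.3, 23.6 and 22.2 CPM in ABA roots at 2 h, against 13.7, 15.3 and 14.8 CPM in control roots (log2 fold change 0.68 ± 0.13 SE, adjusted p = 1.21e-05), and 19.6, 19.1 and 16.0 CPM in ABA roots at 4 h, against 12.5, 13.6 and 14.5 CPM in control roots (log2 fold change 0.43 ± 0.13 SE, adjusted p = 0.00437), where the call did not hold without replicate 1 or replicate 2 (adjusted p = 0.0626 and 0.0533). KRP6 and KRP3 were lower, KRP6 at -0.96, -0.63, -0.35 and -0.24 at 1, 2, 4 and 7 h, and KRP3 at -0.41, -0.59 and -0.52 at 2, 4 and 7 h. ABA and control libraries did not overlap for KRP1 or SMR1 at these times. KRP4 was higher at 7 h only (0.40), KRP5 was lower at 2 and 48 h (-0.39 and -0.45), and KRP7 was lower at 7 and 24 h (-0.56 and -0.61). KRP2 was lower at 1 h only (-0.34, without replicate 3 adjusted p = 0.0587), and SIM at 48 h only (-0.39, without replicate 2 or 3 adjusted p = 0.201 and 0.0774). The median of the 9 inhibitors lay between -0.15 and -0.04 at the 6 times. Of the 7 other SMR inhibitors, 3 were higher at 1 h and 3 at 7 h, where 20.9% and 24.7% of all genes tested were. SMR5, induced by oxidative stress and DNA damage, stood at 2.00 and SMR3 (AT5G02420) at 0.60 at 1 h.

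Of the 10 mitosis and cytokinesis genes, 7 were lower and 1 higher at 4 h in ABA roots (median -0.60), with CDC20.1 at -0.76, CDC20.2 at -0.95 and the kinesin gene TES at 0.39. Of the DNA replication genes 7 of 15 were lower at 4 h, with a median of -0.19, and 0 lower and 0 higher at 48 h. Of 13 E2F, RBR1 and MYB3R genes 3 were higher and 2 lower at 4 h, where 25.8% and 24.4% of all genes tested were. Of 11 CDK partners and activators 1 was higher and 3 were lower, and of 3 other cyclins tested none passed at 4 h. The root meristem markers summed to 19.6 to 21.3 CPM in ABA roots at 4 h, against 24.9 to 27.7 CPM in control roots, and to 23.0 to 24.8 CPM at 48 h, against 20.7 to 22.3 CPM. The sums were lower at 4 h, with 1 of 3 past the threshold at 4 h, and were not lower at 48 h. The decrease at 4 h lay mainly in PLT1, whose mean was 10.7 CPM with ABA and 16.3 CPM without it. PLT2 was nearly level, with means of 7.93 and 8.15 CPM. WOX5 went the other way, with 1.96 CPM under ABA and 1.62 CPM for the control. The part of these marker genes in the result was not tested.

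In SA shoots the mitotic cyclins were lower at the late times. All 9 B-type cyclins were lower at 24 h (median -0.74) and at 48 h (median -0.86), while 1 was lower at 7 h, CYCB1;3, and none passed the threshold at 1, 2 or 4 h. At 4 h 2 members were higher and 5 lower, where 14% and 8.83% of all genes tested were, 22.8% in all, and at 7 h 4 members were higher and 7 lower, where 20% and 17.7% of all genes tested were, 37.8% in all. At 24 h 7 members were higher and 23 lower, where 29.3% and 30.4% of all genes tested were, 59.7% in all, and at 48 h 5 members were higher and 22 lower, where 32% and 32.9% of all genes tested were, 65% in all. At 1 and 2 h edgeR called 0 members, while 4 and 3 had an unadjusted p under 0.05 and DESeq2 called 0 at each time. Of all genes tested, 0.578% were higher and 0.277% lower at 1 h, and 5.31% and 1.97% at 2 h. All SA shoot libraries at 2 h carry another name prefix than their controls, so the prefix and SA cannot be told apart at that time. The counts at 4 and 7 h, 7 and 11, were 1 and 4 without replicate 2 and 4 and 6 without replicate 3. The 30 and 27 calls at 24 and 48 h came to 23 to 31 and 24 to 27 with a replicate left out. The test over the 6 times called 32 members, against 70.7% of all genes tested, and the effect differed between times for 28, against 55.4%, or 15 members without replicate 2.

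CYCB1;3 had 3.30, 2.88 and 2.99 CPM in SA shoots at 24 h, against 6.95, 6.68 and 6.46 CPM in control shoots (log2 fold change -1.13 ± 0.15 SE, adjusted p = 7.72e-09). CYCB3;1 (AT1G16330) had 3.15, 3.02 and 2.34 CPM in SA shoots at 24 h, against 5.28, 5.74 and 6.43 CPM in control shoots (log2 fold change -1.03 ± 0.16 SE, adjusted p = 5.57e-07), and CYCB1;1 had 4.83, 5.16 and 3.31 CPM in SA shoots at 24 h, against 7.43, 8.22 and 6.57 CPM in control shoots (log2 fold change -0.74 ± 0.21 SE, adjusted p = 0.00261). None of the 3 genes overlapped the control. At 0 h the 4 shoot libraries had 2.81, 4.25, 3.99 and 4.37 CPM of CYCB1;3, and control shoots at 24 h lay above all of them. SA shoots at 24 h lay within the range of 0 h only because of replicate 1, at 2.81 CPM, and below replicates 2 to 4. Replicate 1 stood apart from the others for several members, as described further below. Of the kinases, CDKB1;2, CDKB2;1 and CDKB2;2 were lower at 24 and 48 h (-0.88, -0.94 and -0.68 at 24 h). CDKB1;1 was lower (-0.31) at 24 h, a call that did not hold with DESeq2's size factors or test or without replicate 2 or 3, and it stood at 0.11 at 48 h. It was higher at 7 h (0.53), though not without replicate 3 (log2 fold change 0.25, adjusted p = 0.608). CDKA;1 was higher from 4 h on (0.54, 0.83, 0.93 and 0.76 at 4, 7, 24 and 48 h), with 60.1, 62.6 and 63.1 CPM in SA shoots at 24 h, against 30.7, 32.3 and 34.2 CPM in control shoots (log2 fold change 0.93 ± 0.11 SE, adjusted p = 1.25e-09). Every SA shoot exceeded every control shoot for this kinase at 24 h.

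The D-type cyclins moved in opposite directions in SA shoots too. CYCD4;2 had 4.54, 3.63 and 3.49 CPM in SA shoots at 24 h, against 0.799, 1.22 and 1.55 CPM in control shoots (log2 fold change 1.70 ± 0.21 SE, adjusted p = 2.51e-09), and it was higher by 0.83, 1.76 and 1.61 at 4, 7 and 48 h. Its nearest relative CYCD4;1 had 1.86, 2.34 and 1.58 CPM in SA shoots at 24 h, against 5.80, 5.21 and 4.33 CPM in control shoots (log2 fold change -1.41 ± 0.22 SE, adjusted p = 3.29e-07). SA and control shoots did not overlap for either gene. CYCD3;1 was lower at 24 and 48 h (-0.96 and -0.82), with 11.5, 11.3 and 12.6 CPM in SA shoots at 24 h, against 24.1, 22.4 and 22.6 CPM in control shoots. CYCD3;2 was lower from 4 h, with -1.19 at 48 h, and so was CYCD1;1 (-1.16 at 48 h). CYCD6;1, the leading riser of SA roots, was higher by 0.35 and 0.37 at 24 and 48 h. Of the A-type cyclins, CYCA1;1 and CYCA2;3 were lower at 24 h (-0.80 and -0.85), and CYCA3;1 passed the threshold at no time.

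Among the inhibitors 3 were higher and 2 lower at 24 h, with a median of 0.04, where 29.3% of all genes tested were higher and 30.4% lower, so the counts were near those shares. KRP6 was higher at 24 and 48 h, with 12.9, 11.1 and 10.2 CPM in SA shoots at 24 h, against 7.71, 7.89 and 7.80 CPM in control shoots (log2 fold change 0.55 ± 0.16 SE, adjusted p = 0.00336). KRP1 had 33.3, 38.1 and 35.5 CPM in SA shoots at 24 h, against 27.2, 24.4 and 20.0 CPM in control shoots (log2 fold change 0.58 ± 0.19 SE, adjusted p = 0.00708), which did not hold without replicate 2 (adjusted p = 0.0895) or replicate 3 (adjusted p = 0.133). It was also higher at 48 h (0.41), a call that did not hold without the filter on low counts or without replicate 2 or 3. KRP6 libraries did not overlap at 24 h. KRP2 was lower at 4, 7, 24 and 48 h (-0.55, -0.76, -0.74 and -0.70), with 9.70, 10.7 and 7.67 CPM in SA shoots at 24 h, against 16.3, 15.1 and 15.6 CPM in control shoots (adjusted p = 9.18e-06). The call at 4 h did not hold without replicate 2 and that at 7 h without replicate 3. KRP7 was lower at 24 and 48 h (-0.88 and -1.11), KRP5 was higher at 7 and 24 h (0.62 and 0.54), KRP4 was lower at 7 h only (-0.65), and KRP3 passed the threshold at no time. SIM and SMR1 were lower at 4 and 7 h only, with -0.52 and -0.63 at 4 h and -0.70 and -0.89 at 7 h, and none of these 4 calls held without replicate 2. SMR1 had 10.9, 8.27 and 8.18 CPM in SA shoots at 4 h, against 15.2, 14.0 and 13.0 CPM in control shoots, and the ranges did not overlap.

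**Figure D5:**
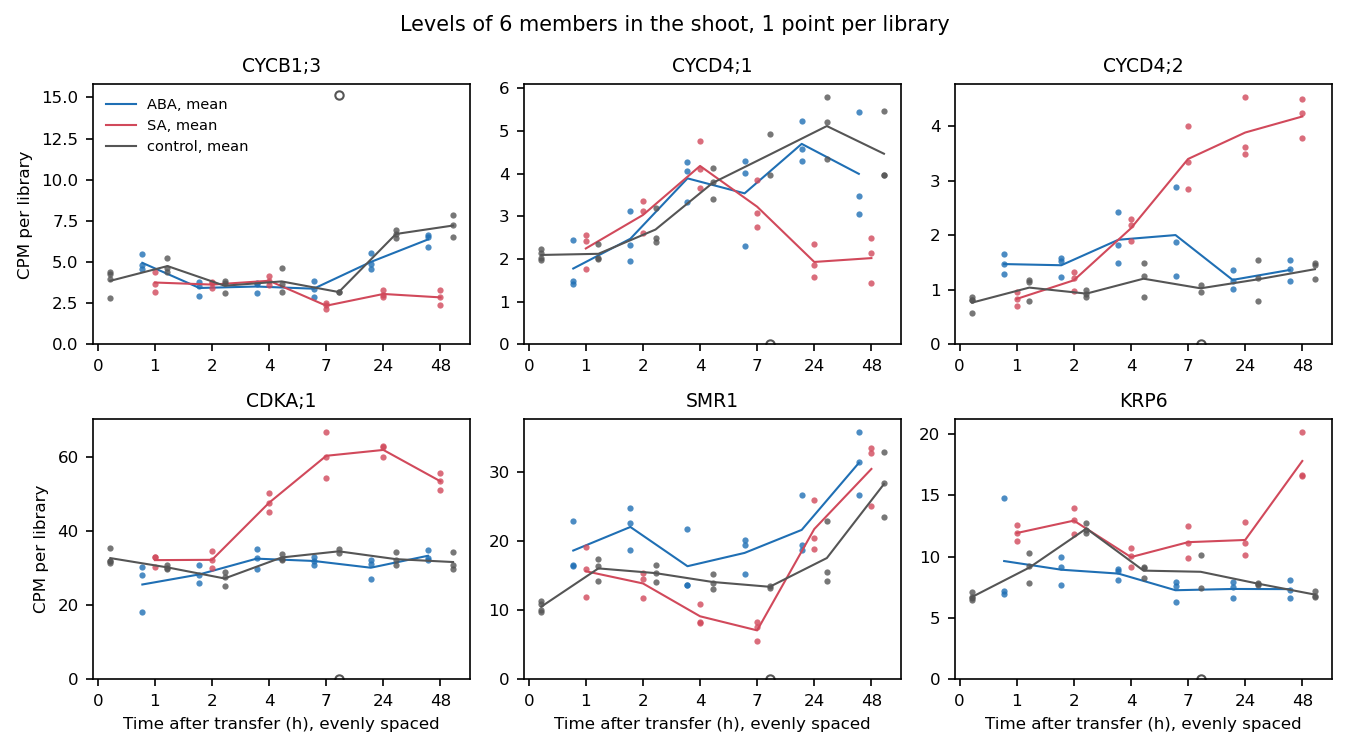
CPM per shoot library of CYCB1;3, CYCD4;1, CYCD4;2, CDKA;1, SMR1 and KRP6 by time after transfer in h, evenly spaced, with ABA in blue, SA in red and control in grey. Points are libraries and lines join means, and the open point is the shallow control library at 7 h, left out of the line. SA shoots stay low in the first pair of panels at 24 and 48 h while the controls are higher, and in the next pair SA shoots lie above the control shoots from 7 h.

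All 10 mitosis and cytokinesis genes were lower in SA shoots at 24 h and at 48 h (medians -0.90 and -1.06), including the microtubule-bundling gene PLE (-1.21 at 24 h) and the Aurora kinases AUR1 and AUR2 (-0.92 and -0.97). Of 15 replication genes 8 and 10 were lower at these times, with TSO2 at -1.45 at 24 h. Among all genes tested, 30.4% and 32.9% were lower at these times, and 29.3% were higher at 24 h. At 24 h, of 13 E2F, RBR1 and MYB3R genes 4 were higher and 2 lower, including E2FC at 0.66, of 7 other SMR inhibitors 1 was higher and 4 lower, of 11 CDK partners and activators 5 were lower, and of 3 other cyclins tested 2 were lower. Other cell-type genes moved at the same times. STM, CLV3 and WUS, genes of the shoot meristem, summed to 1.02 to 1.48 CPM in SA shoots at 24 h, against 2.13 to 2.45 CPM in control shoots, and only STM passed the filter on low counts. The 5 stomatal lineage genes summed to 36.2 to 40.9 CPM, against 49.7 to 58.5 CPM, with 4 of 5 lower, and the 5 photosynthesis genes were all lower, with sums of 23893 to 25971 CPM, against 53675 to 56619.8 CPM. Their part in the result was not tested.

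Few members changed in ABA shoots, at shares near or under those of all genes, and the counts depended on single replicates. The members higher numbered 6, 5, 1, 3, 0 and 0 at 1, 2, 4, 7, 24 and 48 h, where 14.5%, 16.4%, 12.9%, 8.47%, 9.97% and 7.79% of all genes tested were higher. The members lower numbered 4, 3, 0, 1, 3 and 0, where 10.9%, 14%, 14.7%, 8.98%, 8.62% and 7.46% were lower. At 48 h edgeR called 0 members, 0 had an unadjusted p under 0.05, and DESeq2 called 0. The test over the 6 times called 15 members, against 50.1% of all genes tested, but 1 without replicate 2, 8 without replicate 3 and 8 with DESeq2. The effect differed between times for 5 members, against 15.2% of all genes. The 10 calls at 1 h became 1 without replicate 1, and replicate 1 of the ABA shoots at 1 h stood apart from replicates 2 and 3. KRP7 had 12.0, 4.43 and 5.09 CPM in ABA shoots at 1 h, against 4.39, 4.36 and 3.93 CPM in control shoots (log2 fold change 0.79 ± 0.25 SE, adjusted p = 0.0170, and log2 fold change 0.21, adjusted p = 0.490 without replicate 1). CYCB2;3 had 12.9, 9.16 and 10.2 CPM in ABA shoots at 1 h, against 6.13, 6.97 and 7.15 CPM in control shoots (log2 fold change 0.68 ± 0.16 SE, adjusted p = 0.00129, and log2 fold change 0.45, adjusted p = 0.0526 without it), and KRP1 had 42.5, 17.6 and 20.0 CPM in ABA shoots at 1 h, against 19.5, 16.5 and 14.9 CPM in control shoots (log2 fold change 0.66 ± 0.19 SE, adjusted p = 0.00797, and log2 fold change 0.27, adjusted p = 0.138 without it). In each case the first ABA library was the highest of the 6.

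The members called lower at 1 h were A- and D-type cyclins. CYCA2;2 had 0.922, 1.85 and 1.30 CPM in ABA shoots at 1 h, against 1.85, 3.19 and 1.51 CPM in control shoots (log2 fold change -0.69 ± 0.25 SE, adjusted p = 0.0354), CYCD5;1 had 2.37, 5.07 and 4.70 CPM in ABA shoots at 1 h, against 6.86, 5.54 and 5.40 CPM in control shoots (log2 fold change -0.58 ± 0.21 SE, adjusted p = 0.0332), and CYCA2;3 had 5.64, 8.85 and 9.63 CPM in ABA shoots at 1 h, against 10.1, 10.6 and 9.65 CPM in control shoots (log2 fold change -0.34 ± 0.13 SE, adjusted p = 0.0489). Without replicate 1 their log2 fold changes were -0.55, -0.17 and -0.12, none past the threshold. CYCA2;1 was also called, with -1.85 and -1.08 at 1 and 2 h, from at most 12 counts in an ABA library at 1 h. CYCD4;2 was higher at 2, 4 and 7 h (0.66, 0.62 and 0.83), with 2.43, 1.83 and 1.50 CPM in ABA shoots at 4 h, against 1.25, 0.866 and 1.50 CPM in control shoots. The highest control shoot reached the lowest ABA shoot at that time, and the shallow control library at 7 h held no count of the gene. Without that library the calls at 7 h were 3 with ABA, against 4 with it, and 10 with SA, against 11 with it. SMR1 was higher at 2 h, with 24.8, 22.6 and 18.7 CPM in ABA shoots at 2 h, against 16.6, 15.4 and 14.1 CPM in control shoots (log2 fold change 0.52 ± 0.19 SE, adjusted p = 0.0317), and KRP1 and KRP2 by 0.55 and 0.53. The calls of SMR1 and KRP1 did not hold with DESeq2 or without replicate 2 or 3. CYCB1;1 was called higher at 1 h (0.66), SIM lower at 7 h (-0.60) and CDKB1;1 higher at 7 h (0.59), and none of these held with DESeq2's test. CDKA;1 and CYCD3;1 passed the threshold at no time, with values between -0.25 and 0.07 and between -0.12 and 0.30. At 24 h CYCB1;2, CYCB1;3 and CYCB3;1 were lower (-0.44, -0.42 and -0.49), and the median of the 9 B-type cyclins was -0.42. Without replicate 2 or 3 none of them was called. As a class, the B-type mean per library at 24 h was 6.68, 7.33 and 7.30 in ABA shoots. Control shoots had 9.18, 9.05 and 9.03, without overlap. In the ABA shoot lists, 3 of 10 mitosis and cytokinesis genes were higher at 1 h (median 0.28) and 0 lower at 24 h, 3 of 7 other SMR inhibitors were higher at 2 h, with SMR5 at 1.94, and 2 of 15 replication genes were lower at 2 h. Of 13 regulators 3 were lower at 2 h, of 11 CDK partners and activators 1 was higher and 1 lower, and of 3 other cyclins tested 1 was lower at 1 h. Among all genes tested, 14.5% were higher and 10.9% lower at 1 h, and 16.4% and 14% at 2 h.

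Set directly against each other, ABA and SA differed at some time for 38 members in root, against 94.7% of all genes tested, and for 33 in shoot, against 82.6%, which is close to the share of all genes in each tissue. ABA and SA share their control libraries, so their fold changes are only set side by side. In root at 4 h the median of the B-type cyclins was -0.68 with ABA and -1.67 with SA, and at 48 h -0.01 and -1.79. KRP1 stood at 0.36 with ABA and -1.45 with SA at 1 h in root. At 2 h KRP6 stood at -0.63 and 0.78, and SMR1 at 0.68 and -0.88. CYCD3;1 was lower with both hormones at 2 h (-0.94 with ABA and -0.83 with SA). The direct test over the 6 times gave adjusted p-values of 8.31e-16 for KRP1, 1.12e-24 for KRP6, 7.04e-20 for SMR1 and 5.69e-14 for the cyclin.

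The root and shoot responses were then compared by a test of the difference itself, the hormone effect in root minus that in shoot. For SA, 38 members differed at some time, against 72.1% of all genes tested, and for ABA 19, against 38.3%. The ABA count was 4 without replicate 2 and 12 without replicate 3. For SA, the B-type cyclins with a lower effect in root numbered 0, 8, 9, 3, 0 and 6 of 9 at 1, 2, 4, 7, 24 and 48 h, where 7.29%, 18.7%, 12.9%, 10.9%, 17% and 21.3% of all genes tested were lower. The median difference was -1.69, 0.26 and -0.67 at 4, 24 and 48 h. At 2 h SA and control libraries differ in name prefix in shoot and not in root. The prefix and the difference between organs cannot be told apart at that time. The values at 7 h, for both hormones, use the shallow shoot control library. At 24 h, when 8 of the 9 were lower in SA roots and 9 in SA shoots, none passed the test of a difference between organs in either direction, with differences between -0.24 and 0.61. CYCB1;4 had the smallest p among B-type cyclins, with a difference of -2.02 ± 0.20 SE, adjusted p = 4.19e-14 at 4 h. CYCD6;1 differed by 2.40 ± 0.22 SE, adjusted p = 1.29e-15 at 24 h, and CYCA2;4 by 1.85 ± 0.18 SE, adjusted p = 1.21e-14. Both were higher in SA roots relative to their change in SA shoots. For ABA, 6 of 9 B-type cyclins had a lower effect in root at 4 h (6.79% of all genes tested, median -0.66) and 2 at 7 h (5.43%). CYCD3;1 differed by -1.11 ± 0.20 SE, adjusted p = 7.94e-06 at 4 h, KRP2 by -0.88 ± 0.16 SE, adjusted p = 2.46e-05 at 1 h, and CYCA2;4 by -0.83 ± 0.19 SE, adjusted p = 4.86e-04 at 2 h. The first of these fell in ABA roots, and in ABA shoots it stood at 0.25 at 4 h.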

How the data were processed

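The deposited table holds whole-number read counts per gene for 58 root and 58 shoot libraries. The authors made it with HISAT2 and featureCounts on TAIR10, per the submitters' processing notes, from stranded poly(A) libraries sequenced as paired reads of 150 bases, per the labels' protocols. Multimapping and strand settings of the counting are not given in the sources used here. Groups and replicate numbers came from the sample titles, every table column was matched to a sample by its name, and 0 columns were left unused.

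Counts were analysed with edgeR 4.0.16 and limma 3.58.1 in R 4.3.3: genes were filtered with filterByExpr, scaled by TMM, and tested with quasi-likelihood F-tests on group means, in all libraries of a tissue for hormone and time comparisons and in the libraries of both tissues together for the interaction of tissue and hormone and for root against shoot. Adjusted p-values are Benjamini-Hochberg over all genes of a fit, with a threshold of 0.05. The scripts were tested on simulated data with known changes. Alternatives were DESeq2 size factors, the DESeq2 1.42.0 test, no filter, a replicate block, leaving out each replicate or the shallow library, SA replicate 1 alone at 24 h in the root, and, for class medians, log2 ratios of pooled CPM with a pseudocount of 0.5. A count of 0 in the shallow library allows a share of up to 0.00650% of its counts, for counting error only.

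The 40 members and the related lists (other cyclins, other SMR inhibitors, E2F, RBR1 and MYB3R genes, DNA replication genes, mitosis and cytokinesis genes, CDK partners and activators, and root, shoot, meristem and stomatal markers) were chosen with earlier results of these data known. Full values are given for CYCB1;1, CDKA;1, CDKB1;1, CYCD3;1, KRP1, KRP2, SIM and SMR1, and, for the time at which a hormone called most members in a tissue, for the 3 lowest and 3 highest fold changes among called members of at least 1 CPM. From a related list, the 3 called genes with the smallest joint p in a tissue and hormone could be named. Other members and other times were chosen for mention after their values were seen. Promoters, exon lengths and overlaps came from RefSeq's TAIR10.1 assembly.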

Additional observations from a re-analysis of the deposited data

Results flagged for a closer look

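In 80 groups of 4 libraries at 0 h, 1 tissue and 1 member each, 6 had a library far from the other 3 relative to the range of the group. Chance gives about 1 in 20 for independent groups, and members of the same libraries are not independent. The levels here are scaled within each tissue. Among roots, CYCB3;1 had 12.9, 12.8, 13.0 and 11.2 CPM in replicates 1 to 4, with 11.2 apart, and CYCA2;1 had 2.38, 2.34, 1.98 and 2.34 CPM, with 1.98 apart. Among shoots, CYCA1;1 had 6.69, 9.88, 9.64 and 9.41 CPM, with 6.69 apart, CDKA;1 had 35.4, 31.5, 31.9 and 32.0 CPM, with 35.4 apart, KRP4 had 27.6, 19.3, 18.7 and 19.7 CPM, with 27.6 apart, and SIM had 13.5, 7.70, 7.73 and 6.96 CPM, with 13.5 apart. The shoot values apart all came from the same library, replicate 1. Its B-type mean was also the lowest, at 4.43, against 5.82, 5.63 and 5.61 in replicates 2 to 4. This library enters every comparison with shoots at 0 h. In root against shoot, 30 to 31 members were called with a replicate left out (reported 31).

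The hormone effect differed between root and shoot, by the interaction test over 6 times, for 19 members with ABA and 38 with SA, where 38.3% and 72.1% of all genes tested did. Without replicate 2 the ABA count was 4. The smallest adjusted p-values from edgeR were 2.39e-11 for CYCD3;1, 1.58e-06 for KRP2 and 3.29e-06 for CYCA2;4 with ABA, and 2.37e-22 for CYCD6;1, 4.23e-20 for CYCB1;4 and 3.41e-19 for CYCA2;4 with SA. The effect differed between times for 24 members in ABA roots, 36 in SA roots, 5 in ABA shoots and 28 in SA shoots, against 43.7%, 81%, 15.2% and 55.4% of all genes tested. Without replicate 2 the counts were 12 in ABA roots, 0 in ABA shoots and 15 in SA shoots.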

How the results depend on the processing

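No called fold change of a named gene changed direction under any alternative run. The SA root counts and those of SA shoots at 24 and 48 h stayed within 1.5 times the reported count under every alternative, and with DESeq2's size factors every count did. With the DESeq2 test the ABA shoot counts were 6, 5, 0 and 1 at 1, 2, 7 and 24 h (reported 10, 8, 4 and 3) and 8 at any time (15). With no filter on low counts the ABA shoot count at 7 h was 2.

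With a replicate left out in turn, the counts in ABA roots were 12 to 20, 11 to 16, 2 to 7 and 1 to 5 at 2, 7, 24 and 48 h (reported 19, 20, 8 and 4) and 12 to 18 for the difference between times (24). In ABA shoots they were 1 to 8, 1 to 8, 0 to 4, 0 to 4 and 0 to 1 at 1, 2, 4, 7 and 24 h (10, 8, 1, 4 and 3), 1 to 13 at any time (15) and 0 to 2 for the difference between times (5). In SA shoots they were 0 to 1, 0 to 1, 1 to 7 and 4 to 15 at 1, 2, 4 and 7 h (0, 0, 7 and 11) and 15 to 27 for the difference between times (28). The control course in shoot gave 20 to 33 (31), and the interaction of tissue and ABA 4 to 19 (19). Leaving out only the shallow library gave 15 and 5 for these 2 ABA shoot tests over the times, 28 for the SA shoot difference and 20 for the interaction. The cause of these shifts beyond fewer libraries was not tested. Over the named genes and times, 52 of the values with a replicate left out lost their call, 14 gained one and 595 kept their side of the threshold. Of 48 class medians, 5 moved by more than the spread between replicates when taken as log2 ratios of pooled CPM, 3 of them in shoots at 7 h, where the shallow library enters the pooled control. Of these, 2 turned sign: the inhibitors in ABA shoots stood at 0.16 (reported -0.20) and the B-type cyclins in SA shoots at 0.34 (reported -0.08).

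Replicate numbers were not taken to pair the samples in the main tests. The deviations of same-numbered libraries of a time had a mean correlation of 0.0805 in root (25 of 54 pairs over 0.1) and 0.377 in shoot (42 of 45). Differently numbered libraries had means of -0.0402 and -0.182. Same-numbered shoot libraries thus tended to deviate together, which the main tests leave out. No correlation was taken between root and shoot libraries of a number, which the main tests across tissues treated as separate and the replicate block joined. With the replicate block, 2 members were called in ABA shoots at 4 h and 1 in SA shoots at 1 h, and 37 of 39 counts stayed within 1.5 times the reported one. Of the named genes and times, 7 gained a call under the block (SMR1 in ABA shoots at 7 and 24 h and in SA shoots at 24 h, KRP1 in SA roots at 7 h and SA shoots at 4 h, SIM in SA roots at 4 h and SA shoots at 1 h) and 1 lost it, CDKB1;1 in SA roots at 1 h. Depth limits what can be said of CYCD7;1, of CYCA2;1 in shoots and of the shallow control library at 7 h.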
